A study of Rattus norvegicus with 2 samples.

Results

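Mast cells of skeletal muscle were examined in 2 single-cell RNA-seq libraries, 1 from a rat-mouse chimera and 1 from an SD rat (Sprague-Dawley). Mast cell barcodes were chosen by 7 genes, at least 3 of which had to be found: the granule proteases Cpa3, Cma1, Tpsb2 and Tpsab1, the histidine decarboxylase gene Hdc and the IgE receptor subunits Ms4a2 and Fcer1a. A barcode with a UMI (a counted transcript molecule) of the endothelial gene Pecam1, the fibro-adipogenic gene Pdgfra, the T cell gene Cd3e or the B cell gene Cd79a was left out. In the chimera, a barcode was called rat with at most 20% and mouse with at least 80% of its UMIs on mouse genes. The rule found 84 mast cells among 21153 barcodes that had at least 500 UMIs, 200 genes and at most 20% mitochondrial UMIs. Of these, 46 came from the SD rat, 32 were rat cells of the chimera and 6 were mouse cells of the chimera. A further 2 chimera barcodes met the gene rule with 63.3% and 64.9% of UMIs on mouse genes and were kept apart.

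The chimera was grown from a Sprague-Dawley morula injected with Dmd mdx; Pax7-nGFP mouse iPSCs (induced pluripotent stem cells) whose dystrophin gene had been edited with CRISPR/Cas9. The paper checked the edit by sequencing in 1 iPSC clone. Every mouse cell descends from the injected iPSCs, with the mdx background, the edit and the reporter, and every rat cell in either library is unedited. For 1 of the paper's rat-mouse chimeras the iPSCs also carried a lentiviral RFP label, and the labels do not say which chimera was sequenced. The labels give neither an age nor a sex for these animals. Muscle was digested enzymatically and live cells were sorted before droplet capture, so cells lost to digestion and cells absent from the tissue cannot be told apart. With 1 library per group there was no test between groups: the intervals below are exact 95% intervals that cover counting error only, and differences between the libraries and between the animals cannot be told apart. The libraries held 118872850 and 70957559 UMIs in 13299 and 10117 barcodes for the chimera and the SD rat. The 2 libraries shared 43 barcode sequences, of which 0 were mast cells.

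Mast cells are tissue-resident cells of the blood lineage that depend on the receptor KIT and store histamine, serotonin, heparin and proteases in granules. Crosslinking of IgE on the receptor FceRI releases the granules and starts the synthesis of prostaglandins, leukotrienes and cytokines. In muscle they lie in the connective tissue along vessels and nerves. Connective tissue mast cells of rodents hold chymases, tryptases and carboxypeptidase A3 together, and the factors GATA2 and MITF are known to control their genes.

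The 4 protease genes with the most UMIs in the rat mast cells are shown with the 250 bases before their start in RefSeq (rat build GRCr8), since these genes carry most of the mast cell signal below. The capitals mark GATAA or its reverse complement TTATC, the core of GATA factor motifs.
Mcpt1l1, chr15:33876896-33877145, strand minus: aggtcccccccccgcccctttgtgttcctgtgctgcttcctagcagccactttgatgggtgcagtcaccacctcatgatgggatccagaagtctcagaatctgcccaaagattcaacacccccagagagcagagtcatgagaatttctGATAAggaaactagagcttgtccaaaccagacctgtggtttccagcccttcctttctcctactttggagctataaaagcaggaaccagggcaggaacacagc
Cpa3, chr2:104673238-104673487, strand minus: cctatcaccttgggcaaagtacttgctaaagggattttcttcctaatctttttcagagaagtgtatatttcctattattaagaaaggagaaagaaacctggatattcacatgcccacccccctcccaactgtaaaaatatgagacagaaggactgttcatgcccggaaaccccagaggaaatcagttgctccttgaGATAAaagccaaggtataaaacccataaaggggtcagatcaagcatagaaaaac
Cma1, chr15:33390134-33390383, strand minus: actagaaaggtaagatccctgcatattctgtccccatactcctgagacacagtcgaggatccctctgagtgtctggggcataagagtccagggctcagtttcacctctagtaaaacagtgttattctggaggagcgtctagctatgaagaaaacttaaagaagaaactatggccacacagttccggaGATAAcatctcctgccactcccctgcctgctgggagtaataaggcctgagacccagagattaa
Tpsb2, chr10:14886060-14886309, strand plus: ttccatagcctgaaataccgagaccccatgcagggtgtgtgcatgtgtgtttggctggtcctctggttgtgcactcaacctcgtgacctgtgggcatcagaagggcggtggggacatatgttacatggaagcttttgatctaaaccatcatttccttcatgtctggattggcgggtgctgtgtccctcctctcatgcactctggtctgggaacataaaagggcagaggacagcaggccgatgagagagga
Mcpt1l1, Cpa3 and Cma1 each had 1 match, beginning at position -102, -54 and -63 relative to the start, and Tpsb2 had 0. Among the 7 rule genes, 6 had a sequence and 4 of these 6 held the letters. With the 15 marking genes described below, 14 of 22 had a sequence and 7 held the letters. The same window held GATAA or TTATC in 23.5% of 33469 rat promoters, and a match is not evidence of binding.

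Under the rule as given, mast cells made up under 1% of each population. They were 46 of 8980 barcodes in the SD rat (0.512%, interval 0.375 to 0.683%). They were 32 of 8477 rat barcodes in the chimera (0.377%, 0.258 to 0.532%) and 6 of 1861 mouse barcodes (0.322%, 0.118 to 0.700%). The 3 intervals overlapped. The order of the rat shares depends on the species threshold: with at most 10% of UMIs on mouse genes, 31 of 2964 rat barcodes of the chimera were mast cells (1.05%, 0.712 to 1.48%), above the SD rat share. Among rat and mouse mast cells of the chimera, 6 of 38 were mouse (15.8%, 6.02 to 31.3%). This lay beside 18.0% of all kept rat and mouse barcodes (1861 of 10338) and 4.53% of barcodes with macrophage markers (26 of 574, 2.98 to 6.57%), which are also resident cells of the blood lineage. The mast cell interval held the value for all barcodes and overlapped that for macrophages. The 4 genes that barred a barcode removed 25 rat and 0 mouse barcodes of the chimera. With those genes allowed 6 of 63 were mouse (9.52%, 3.58 to 19.6%), and with Cd79a alone allowed 6 of 52 (11.5%, 4.35 to 23.4%). Both intervals held the macrophage value of 4.53%. Macrophage barcodes had at least 3 of C1qa, C1qb, C1qc and Csf1r, and the 4 genes stayed barred for them. The wider mast cell shares thus lie beside a macrophage share that was not widened in the same way.

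**Figure D1:**
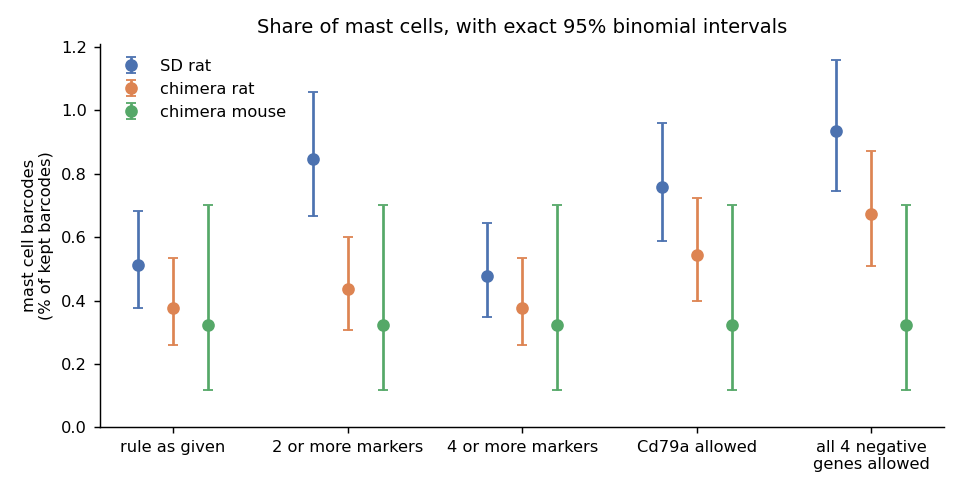
Percentage of kept barcodes that are mast cells (y axis) in the SD rat, the rat cells and the mouse cells of the chimera, for the rule as given and 4 other settings of it; points are shares and bars exact 95% binomial intervals. The SD rat share runs from 0.479 to 0.935% and the mouse share stays at 0.322% in each of the settings shown.

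Mast cells were shallower than the other cells of their population. Their median was 4491 UMIs in the SD rat, 3326 in the chimera rat cells and 2244.5 in the mouse cells, against 6406, 8779 and 6977 UMIs in the other barcodes. Their median mitochondrial share was 6.32%, 8.56% and 8.24% of UMIs.

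Most rat members held 6 or 7 of the markers. In the SD rat, 21 members had all 7 markers, 18 had 6, 3 had 5, 1 had 4 and 3 had 3. The 3 members with 3 markers held 4, 6 and 68 marker UMIs, and the 30 barcodes just outside, with 2 markers, held a median of 2 marker UMIs. The members with 4 and 6 marker UMIs had 693 and 1093 UMIs in all, 19.9% of them mitochondrial in each. These members held 0 and 2 Mcpt1l1 UMIs, so their name rests on few UMIs. In the chimera rat cells 18, 8, 2 and 4 members had 7, 6, 5 and 4 markers, 0 had 3, and 5 barcodes lay just outside with 2. Of the mouse members, 4 had 5 markers and 2 had 4.

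The levels of the rule genes, which chose the members, are a description. Cpa3, a carboxypeptidase that trims peptides in the granule, was found in 46 of 46 SD rat and 32 of 32 chimera rat members. Its lowest, median and highest level was 9.06, 199 and 421 UMIs per 10000 in the SD rat and 48.9, 219 and 511 per 10000 in the chimera rat cells. Cma1, a chymase, ran from 0 through a median of 224 to 609 per 10000 in the SD rat and from 62.5 through 213 to 479 per 10000 in the chimera. Tpsb2, a tryptase that forms tetramers on heparin, had medians of 149 and 125 per 10000 and was found in each rat member. These levels overlapped widely between the libraries.

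The other tryptase, Tpsab1, was uneven among members. It was found in 36 of 46 SD rat members and 25 of 32 chimera rat members, with a highest level of 125 and 178 per 10000. Among members of at least 4000 UMIs, 5 of 28 in the SD rat had 0 Tpsab1 UMIs in 30845 UMIs, which allows up to 97.3 CPM (counts scaled to an equal UMI total in every group). In the chimera 4 of 15 such members had 0 in 32535 UMIs, which allows up to 92.2 CPM. The members of that depth that did hold Tpsab1 had a median of 16 and 21 UMIs and reached 122 and 121. Tpsb2 and Cpa3 were present in each of these 28 and 15 members.

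The histamine and IgE receptor genes were lower and were found in fewer members. Hdc, which makes histamine from histidine, was found in 38 of 46 and 25 of 32 rat members, with medians of 6.79 and 5.08 UMIs per 10000. Ms4a2, the beta chain of FceRI, was found in 41 of 46 and 28 of 32, and Fcer1a, the chain that binds IgE, in 31 of 46 and 26 of 32. After each cell was thinned to 1000 UMIs, Ms4a2 was found in 68.9% of 45 SD rat and 53.3% of 30 chimera rat members. In fibro-adipogenic barcodes, which should lack it, the shares at that depth were 0.226% of 4426 and 0.0544% of 3675. Their median depth was 9615.5 and 11485.5 UMIs. Ms4a2 helped to choose the members, so its higher share in members is no check of the rule.

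**Figure D2:**
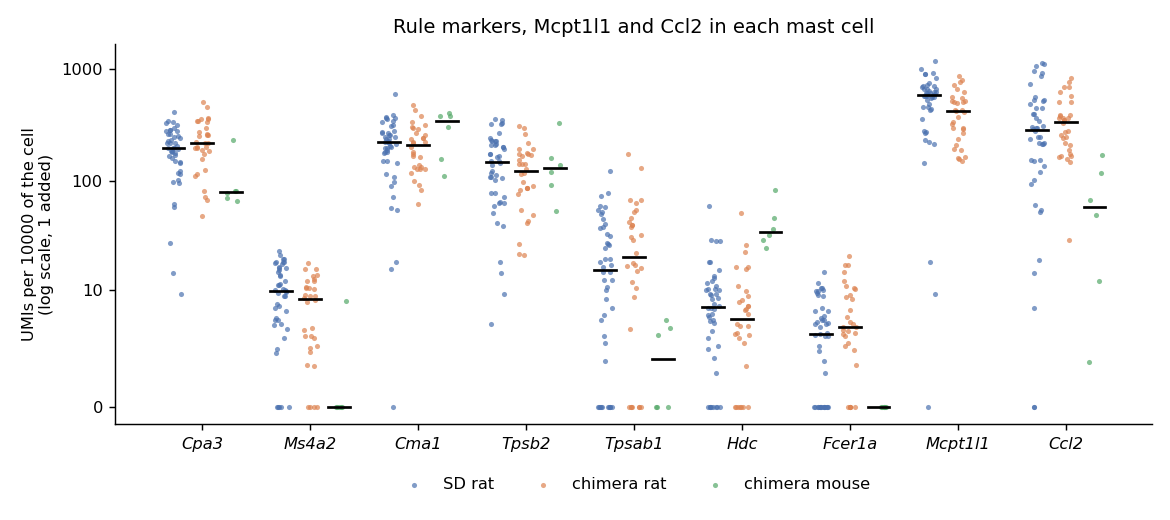
UMIs per 10000 (y axis, log scale with 1 added) of the 7 rule genes, Mcpt1l1 and Ccl2 in each of the 46 SD rat, 32 chimera rat and 6 chimera mouse mast cells; points are cells and black bars medians. The rat groups overlap for each gene, Tpsab1 has members at 0 beside members above 100, and the mouse cells have Fcer1a at 0.

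Genes that the rule did not use marked the same cells. Of 1252 genes compared, 402 (32.1%) in the SD rat and 322 (25.7%) in the chimera were past 2-fold above the other barcodes of the same library, and 295 (23.6%) were in both. A cluster chosen by its own genes is no test, and these ratios describe the members. Mcpt1l1, a chymase-like mast cell protease, led them, at 259-fold in the SD rat and 560-fold in the chimera. It had a median of 588 UMIs per 10000 (0 to 1180) in the SD rat and 424 per 10000 (152 to 866) in the chimera rat cells. Serpinb1a, an inhibitor of serine proteases, was at 201-fold and 190-fold.

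The remaining marking genes fell to several roles. Tph1, the first enzyme of serotonin synthesis, was at 92.6-fold in the SD rat and 112-fold in the chimera and was found in 37 of 46 and 27 of 32 members. Hpgds, which makes prostaglandin D2, was at 44.2-fold and 42.9-fold. Lat2, an adaptor of IgE receptor signalling, was at 56.0-fold and 44.4-fold, Rgs13, a brake on G protein signalling, at 34.5-fold and 35.4-fold, and Plek, a protein kinase C substrate, at 52.1-fold and 37.8-fold. Rab3b and Sytl3, which act in vesicle traffic, were at 32.4-fold and 45.4-fold in the SD rat and at 30.2-fold and 26.1-fold in the chimera. Cd72, Syngr1, Gpr171 and the genes listed as ENSRNOG00000062811 and AC103574.1 were also among the 15 marking genes.

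The members were set against markers of other cells. Summed over the list, the macrophage markers came to 1.12 UMIs per 10000 in the SD rat and 0.762 in the chimera rat members, with 9 of 15 genes at 0 in both. The neutrophil and monocyte markers came to 0.0898 and 0.485 per 10000. The endothelial markers came to 1.66 and 1.80 and the T and NK cell markers to 1.26 and 1.80, but the rule had removed barcodes with Pecam1 or Cd3e, so these sums are no check. The lists of other cells that were not near 0 were the basophil markers at 43.1 and 47.0 per 10000, the fibro-adipogenic markers at 14.2 and 19.8 and the myofibre and satellite cell markers at 185 and 63.5, and in the chimera also the Schwann and glial markers at 22.8. Kit itself was sparse in the rat members, with 16 UMIs in 13 of 46 cells and 17 UMIs in 9 of 32 cells (71.8 and 118 CPM). Gata2 had 27 and 11 UMIs (121 and 76.2 CPM), and Mitf had 16 and 10 UMIs. Both Kit values lay above the 5.02 and 3.64 CPM of the other barcodes.

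The rat mast cells of both libraries were then set side by side. Of 1251 genes compared, 32 (2.56%) were past 2-fold higher and 81 (6.47%) past 2-fold lower in the chimera rat members, with a median log2 ratio of -0.09. Counting only genes whose interval also left out 0, 32 (2.56%) were higher and 79 (6.31%) lower. With that median set to 0, the counts were 44 higher and 70 lower. The filter of 40 UMIs summed both groups, which held 222760 UMIs in the SD rat and 144295 in the chimera. A gene high only in the SD rat members thus passed it at a lower CPM. With no filter on low counts 2112 of 10279 genes were higher and 1381 lower, so which direction held more genes depends on the filter. A count of 0 or 1 in a short list lies near the 2.56% and 6.47% over all genes and is no result about the list. The 7 rule genes, whose detection chose the members in both libraries, had 0 past 2-fold. Cpa3 differed by 0.06 on the log2 scale (interval -0.01 to 0.12), Cma1 by -0.16 (-0.23 to -0.10) and Tpsb2 by -0.37 (-0.45 to -0.28). Ms4a2 differed by -0.65 (-1.01 to -0.31), the largest of the 7, while Fcer1a differed by 0.41 (-0.03 to 0.86) and Tpsab1 by 0.38 (0.22 to 0.55).

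The 5 granule proteases and inhibitors compared had a median of -0.03. None of the 5 was past 2-fold, beside 2.56% higher and 6.47% lower over all genes. Mcpt1l1 differed by -0.50 (-0.55 to -0.46) and Serpinb1a by -0.49 (-0.59 to -0.39), whereas Ctsd, cathepsin D, differed by -0.03. Among the granule matrix and amine genes, Srgn, the core protein that carries heparin, differed by -0.18 (-0.32 to -0.04), and Cd63, a granule membrane protein, by 0.22 (0.06 to 0.38).

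The 16 FceRI signalling genes compared had a median of -0.22. Of these 0 were past 2-fold higher and 1 was lower, near the 2.56% and 6.47% over all genes. Fcer1g, the gamma chain that signals for the receptor, was found in 43 of 46 and 30 of 32 members and differed by 0.08 (-0.18 to 0.35). Lyn, the kinase that phosphorylates the receptor, had 143 and 63 UMIs in the SD rat and the chimera and differed by -0.55 (-1.01 to -0.12). Prkcb, a protein kinase C needed for degranulation, was the gene past 2-fold. It had 139 UMIs in 32 of 46 SD rat members and 34 UMIs in 14 of 32 chimera rat members, a log2 ratio of -1.39 (-1.99 to -0.86). In the other rat barcodes it differed by 1.14, and with Cd79a-bearing barcodes let in its ratio was -0.81.

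The 7 KIT and cytokine receptor pathway genes compared had a median of -0.23, with 0 past 2-fold, again near the shares over all genes. Csf2rb, the shared receptor chain for IL-3 and GM-CSF, differed by 0.12, Il1rl1, the IL-33 receptor, by -0.23 and Mcl1, a survival factor, by -0.79 (-1.26 to -0.35). Of 7 secretion genes compared (median -0.21), Rab27b, a GTPase of granule docking, was past 2-fold lower at 202 against 90.1 CPM (45 and 13 UMIs, log2 -1.12, -2.18 to -0.25). Rab27b was within 2-fold in 5 of 18 alternatives, at -0.17 by the mean CPM of cells, -0.67 with Cd79a allowed and -0.93 without the highest member of each group. Its close relative Rab27a differed by 0.04 (-0.68 to 0.74) and Vamp8, which fuses granules with the membrane, by -0.12. Of 6 surface receptors compared, Cd9, a tetraspanin, was past 2-fold higher at 1.21 (0.79 to 1.67). However, 49.1% of its chimera UMIs came from 1 member, and without the highest member of each group it differed by 0.38. Enpp3, an activation marker of basophils and mast cells, differed by -0.31 (-0.56 to -0.07).

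The 7 lipid mediator genes compared had a median of -0.06, with 0 past 2-fold, near the shares over all genes. Hpgds differed by -0.06 (-0.41 to 0.29) and Alox5ap, which presents arachidonate to 5-lipoxygenase, by 0.01 (-0.36 to 0.37). Ptgs2, the inducible cyclooxygenase, differed by 0.86 (0.61 to 1.11), at 2037 against 1122 CPM. It was past 2-fold in 2 of 20 alternatives, at 1.41 by the mean CPM of cells and 1.23 with at least 2 rule markers.

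Mast cells of both libraries held high levels of the monocyte chemoattractant Ccl2. Its level was 33857 CPM in the SD rat and 35933 CPM in the chimera rat members, against 7835 and 5301 CPM in the other barcodes. It was found in 44 of 46 and 32 of 32 members, with medians of 289 and 342 UMIs per 10000, and differed by 0.09 (0.03 to 0.14) between the libraries. Fibro-adipogenic barcodes also held it: at 1000 UMIs it was found in 64.5% and 60.8% of them, against 93.3% and 100% of mast cells. The chemokine Cxcl1 ran the other way, at 135 and 159 CPM in the mast cells and at 8207 and 6429.9 CPM in the other barcodes. Of 8 cytokines and growth factors compared, Ccl7 and Timp1 were past 2-fold higher in the chimera, at 1.70 and 1.39, beside 2.56% over all genes. The Ccl7 and Timp1 values rested on 29 and 42 UMIs, of which 1 member held 58.6% and 40.5%, and 7 and 10 of 32 members held any. With at least 2 rule markers required in place of 3, Ccl7 differed by -0.69 and Timp1 by -0.84, the opposite direction. That setting added 30 SD rat and 5 chimera rat barcodes, which held a median of 2 marker UMIs in either group. In the other barcodes of the SD rat and the chimera, Ccl7 was at 947 and 905 CPM and Timp1 at 2195 and 1527 CPM. The part of the added barcodes in the change of direction was not tested.

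**Figure D3:**
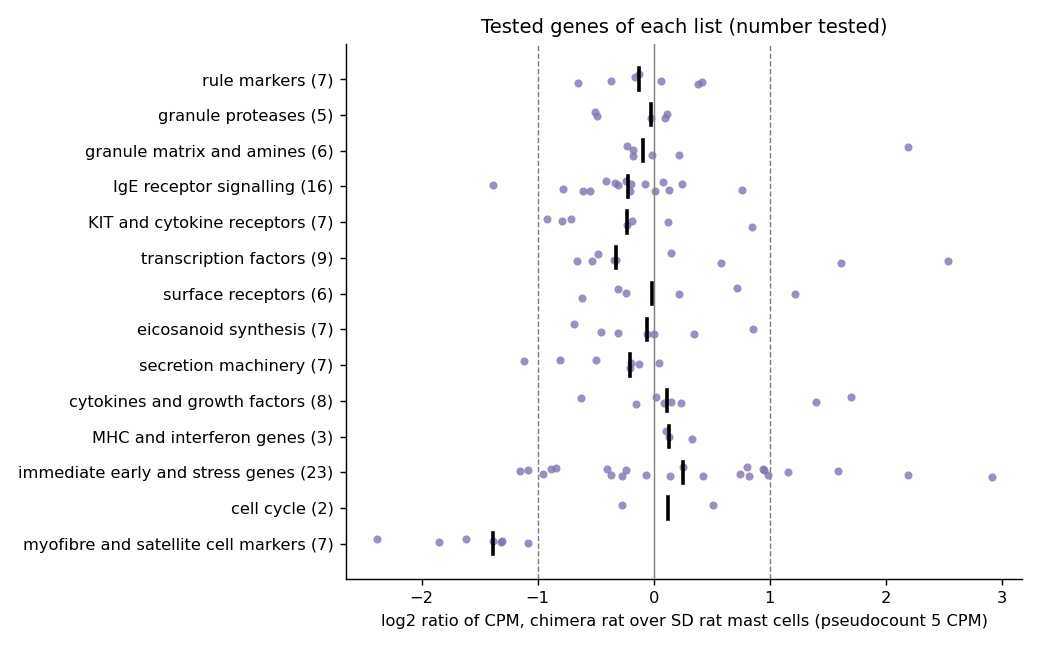
Log2 ratio of CPM (x axis) of each compared gene in chimera rat over SD rat mast cells, by gene list, with the number compared in brackets; points are genes, black bars medians and dashed lines 2-fold. The mast cell lists have medians from -0.33 to 0.13, the immediate early and stress list reaches 2.91, and the 7 myofibre genes all lie below -1.

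The highest ratios within the lists were those of immediate early genes, which cells switch on within minutes of a stimulus, tissue digestion included. Of 23 immediate early and stress genes compared, 4 were past 2-fold higher and 2 lower, with a median of 0.25. Over all genes the shares were 2.56% higher and 6.47% lower, and 2 lower of 23 lies near the latter. Fos was at 1490 CPM in the chimera and 323 CPM in the SD rat (log2 2.19, 1.81 to 2.61) and Egr1 at 1012 and 130 CPM (2.91, 2.38 to 3.59). Both encode factors of the first transcriptional response. Atf3 and Nfkbiz differed by 1.59 and 1.16. Among the transcription factors, Nr4a1 (2.53, 1.76 to 3.59) and Klf2 (1.61, 1.17 to 2.10) were past 2-fold higher of 9 compared, beside 2.56% over all genes. Jun differed by -0.28, and the chaperone Hspa5 by -0.89 (-1.14 to -0.64). Gadd45b and Hsph1 were past 2-fold lower, at -1.08 and -1.16.

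The differences in immediate early genes lay in a minority of members. Fos was found in 16 of 32 chimera rat members and 15 of 46 SD rat members, and Egr1 in 15 of 32 and 14 of 46. A single chimera member of 7950 UMIs, with all 7 rule markers and 204 Cpa3 UMIs, held 77 Fos, 76 Egr1, 96 Jun, 41 Atf3 and 29 Nr4a1 UMIs. It held 52.1% of the chimera's Egr1 UMIs and 51.8% of its Nr4a1 UMIs. Without the highest member of each group, Fos differed by 1.98, Egr1 by 2.19, Nr4a1 by 1.97, Atf3 by 1.46 and Klf2 by 1.30. Nfkbiz then differed by 0.92, Gadd45b by -0.52 and Hsph1 by -0.38, all within 2-fold. With Cd79a allowed, Fos differed by 1.31, Egr1 by 2.64 and Nr4a1 by 1.21, while Atf3 (0.30), Nfkbiz (0.21), Klf2 (0.99) and Hsph1 (-0.39) were within 2-fold. In the other rat barcodes Fos differed by 0.92, Egr1 by 0.60 and Nr4a1 by 0.63 in the same direction. Those barcodes had levels of 1396 and 2656 CPM for Fos and 701 and 1065 CPM for Egr1 in the SD rat and the chimera. Fos was lower in mast cells than in those barcodes in both libraries, and Egr1 was lower in the SD rat. In the chimera Egr1 was near that level, at 1012 CPM in mast cells. The part of dissociation in these values was not tested.

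**Figure D4:**
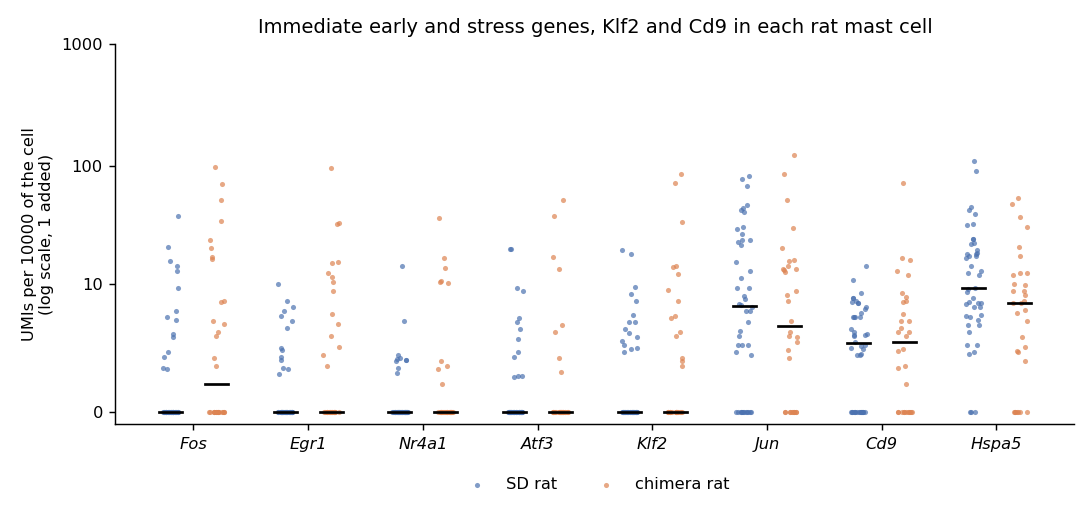
UMIs per 10000 (y axis, log scale with 1 added) of 8 genes in each of the 46 SD rat and 32 chimera rat mast cells; points are cells and black bars medians. Most cells lie at 0 for Egr1, Nr4a1, Atf3 and Klf2 in both groups, and a few chimera cells reach levels that no SD rat cell reaches.

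RNA of other cells differed between the libraries as well. All 7 compared myofibre genes were past 2-fold lower in the chimera rat mast cells, beside 6.47% over all genes. The 7 genes had a median of -1.38, and in the other rat barcodes the same genes differed by -0.47 to -0.83. The skeletal actin gene Acta1 differed by -1.85 and the troponin gene Tnni2 by -2.38. The 13 measured myofibre and satellite cell markers summed to 185 UMIs per 10000 in the SD rat members and 63.5 per 10000 in the chimera rat members. Single members ran from 35.1 to 1390 and from 12.1 to 636 per 10000, and Mylpf, a myosin light chain, was found in 46 of 46 and 29 of 32. Another chimera rat member, of 7641 UMIs and with all 7 rule markers, held 329 UMIs of Schwann and glial markers. That member held 54 of the 215 Fos UMIs, 55 of the 112 Cd9 UMIs and 26 of the 120 Klf2 UMIs of the group. The fibro-adipogenic markers ran from 0 to 351 per 10000 in the SD rat and from 0 to 179 in the chimera. The SD rat member at 351, of 4416 UMIs, met the rule with 5 markers. It held 155 fibro-adipogenic UMIs but only 15 rule marker UMIs, 4 of them Cpa3, so its values go against the name mast cell. It also held 17 of the 72 Fos UMIs of the SD rat members. Some members were then left out, 14 in the SD rat and 7 in the chimera rat cells, that one included. Each had at least 100 UMIs per 10000 on 1 list of another cell type. Without them Fos differed by 2.24, Egr1 by 3.24, Nr4a1 by 2.53 and Prkcb by -1.13. Klf2 then differed by 0.52 and Cd9 by 0.01.

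Outside the lists, the 5 highest log2 ratios among genes not carried by 1 member were those of Mrps28 (2.49), Rplp2 (2.42), Hspd1 (1.80), S100a6 (1.31) and Ptms (1.20). Of the chimera's UMIs of Mrps28, Rplp2 and Ptms, 83.0%, 87.5% and 94.3% lay on the mouse gene, although these were rat cells. With rat genes alone Rplp2 differed by -0.51 (-1.19 to 0.12). S100a6, a calcium-binding protein, had 1.10% of its UMIs on the mouse gene and was at 4421 against 1778 CPM (1.13 to 1.50), while the other rat barcodes differed by -0.04. With Cd79a allowed S100a6 differed by 0.90 and with all negative genes allowed by 0.63, both within 2-fold. Hspd1, a mitochondrial chaperone, had 0 UMIs on the mouse gene and rested on 40 and 17 UMIs. The 5 lowest were the genes listed as ENSRNOG00000051885, AABR07046956.1, Hs6st3, ENSRNOG00000063108 and Gm5471. The first 3 had 227, 188 and 65 UMIs in SD rat members and 0 in chimera rat members. Against the limit of 3 UMIs over the group (20.8 CPM), ENSRNOG00000051885, at 1019 CPM in the SD rat members, was at least 49.0-fold lower in the chimera. The corresponding bounds were 40.6-fold for AABR07046956.1 and 14.03-fold for Hs6st3. Their log2 ratios in the other rat barcodes were -7.47, -8.00 and -6.13.

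Some UMIs of the rat members of the chimera lay on mouse genes. How many of them were rat transcripts mapped to mouse genes and how many were free mouse RNA was not tested. In the 32 chimera rat members, 9063 of 146073 UMIs (6.20%) lay on mouse genes, and 371 of 1251 compared genes (29.7%) had at least 5% of their UMIs there. Cma1 had 494 of its 2969 UMIs (16.6%, 15.3 to 18.0%) on the mouse gene and Hdc 19.8%, whereas Cpa3, Ms4a2, Tpsab1, Fcer1a and Mcpt1l1 had 0%. Tpsb2 had 4 UMIs on the mouse gene (0.23%). The 6 mouse mast cells held 397 Cma1, 91 Hdc, 228 Tpsb2 and 171 Cpa3 UMIs on mouse genes. With rat genes alone, Cma1 differed by -0.39 and Hdc by -0.41 between the libraries.

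The 6 mouse mast cells, which descend from the injected iPSCs, held their mast cell genes on mouse genes. Cpa3, Cma1, Tpsb2 and Hdc, which the rule used, and Mcpt4 had 0 UMIs on rat genes, while Cd63 had 1 and Ccl2 had 2. Mcpt4, the mouse chymase of connective tissue mast cells, had 162, 67, 88, 256, 97 and 73 UMIs in the 6 cells, and Cma1 had 74, 47, 94, 84, 49 and 49. Cpa3 had 55, 20, 58, 16, 13 and 9 UMIs, and Hdc had 56, 11, 8, 6, 4 and 6. Each of these genes was thus found in 6 of 6 cells. Kit was found in 6 of 6 cells with 30 UMIs, and the mast cell receptor gene Mrgprb1 in 6 of 6 with 50 UMIs. Mcpt4, Mrgprb1, Prss34, Mrgprb2, Mrgprx2, Mcpt8 and Cd200r3 were singled out after their values were seen.

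Other genes of the mouse cells were sparse. Ms4a2 had 1 UMI, and Fcer1a and Enpp3 had 0 in 17000 UMIs, which allows up to 176 CPM for each. Fcer1g, however, had 55 UMIs in 6 of 6 cells. The mouse receptor genes Mrgprb2 and Mrgprx2 had 6 and 13 UMIs. The basophil gene Mcpt8 had 0 UMIs, while Prss34, a protease of basophils and mast cells, had 35 UMIs in 5 of 6 and Cd200r3 had 7 UMIs. Hdc was at 5353 CPM (4310 to 6572) in the mouse cells beside 992 and 908 CPM in the SD rat and chimera rat members, and Kit at 1765 CPM beside 71.8 and 118 CPM. Ccl2 was at 4353 CPM in the mouse cells. The rat and mouse genes come from different annotations, so these levels stand side by side and were not compared.

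Members with many cell cycle UMIs were rare. A single chimera rat member, of 14923 UMIs and with 6 rule markers, held 85 UMIs on 15 of the 21 measured cell cycle genes, among them 16 of Ube2c, 12 of Cenpf, 13 of Nusap1, 9 of Top2a and 3 of Mki67. It was the deepest of the chimera rat members, whose median was 3326 UMIs, and its Cpa3, at 48.9 UMIs per 10000, was their lowest. It held 72 Cpa3, 32 Tpsb2 and 234 Mcpt1l1 UMIs. The medians were 151, 75 and 268 in the 15 chimera rat members of at least 4000 UMIs. Whether this barcode held 1 cell or more was not tested. The next chimera rat member held 8 UMIs of the cell cycle genes, and the highest SD rat member 13.

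The rule left out further barcodes with mast cell genes, mostly through Cd79a, a signalling chain of the B cell receptor. In the SD rat 38 barcodes with at least 3 rule markers were left out, 27 of them with Cd79a, 8 with Pecam1, 8 with Pdgfra and 0 with Cd3e. In the chimera rat cells 25 were left out, 19 with Cd79a, and in the mouse cells 0. Of these, 22 and 14 were left out by Cd79a alone. Over all barcodes with at least 3 rule markers, Cd79a was at 71.0 CPM (51.2 to 96.0, 42 UMIs) in the SD rat and 68.0 CPM (44.4 to 99.6, 26 UMIs) in the chimera rat cells, with at most 3 UMIs in a barcode. It was at 2.70 and 7.32 CPM in all other barcodes without B cell genes, and at 1072 and 682 CPM in barcodes with Cd79b or Ms4a1. Those B cell partners were nearly absent from the mast cell barcodes: Cd79b had 0 UMIs in both, and Ms4a1 had 0 and 1.

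**Figure D5:**
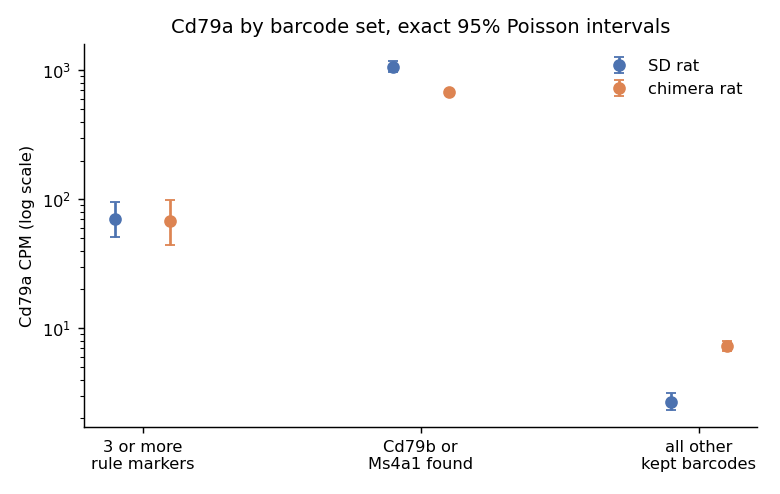
Cd79a CPM (y axis, log scale) in barcodes with at least 3 rule markers, barcodes with Cd79b or Ms4a1, and all other kept barcodes of the SD rat and the chimera rat cells; points are summed levels and bars exact 95% Poisson intervals. The mast cell barcodes, at 71.0 and 68.0 CPM, lie between the B cell barcodes and the rest in both libraries.

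At an equal depth of 1000 UMIs, Cd79a was found in 12.0% of 83 and 10.9% of 55 barcodes with mast cell genes, against 0.479% and 0.888% of the other barcodes. With Cd79a allowed and the other 3 genes still barred, the mast cells numbered 68 in the SD rat (0.757%) and 46 in the chimera rat cells (0.543%). The genes past 2-fold then numbered 31 higher and 114 lower of 1835 compared.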

How the data were processed

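Muscle cells of 1 rat-mouse chimera and 1 SD rat were profiled with droplet 3' single-cell RNA-seq. The deposited matrices hold UMI counts per gene and barcode, which the authors made with Cell Ranger 7.1.0. Per the labels, the builds were mRatBN7.2 and GRCm39, and chimera rows carry a species tag. Rat and mouse rows of a symbol were added. The rule is given with the results, and the members and gene lists were chosen with earlier results of these data known.

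Counts were summed over members and scaled to CPM over the symbols of the rat reference, or over all UMIs for mouse members. Genes with at least 40 UMIs in both groups together and found in at least 5 members of 1 group were compared as log2 ratios with a pseudocount of 5 CPM. With 1 library a group no test was run. Intervals are exact at 95% (Clopper-Pearson for shares, Poisson for levels, binomial for ratios). Named genes were the 7 rule markers, the 3 genes with the most UMIs and each gene past 2-fold whose interval left out 0 in every mast cell list, the 5 highest and 5 lowest other ratios with no member over 25% of the UMIs, and the 15 genes highest above other cells. Some genes that this rule names are not reported here. Ube2c, among the 3 of the cell cycle list, was not compared for lack of UMIs. The gene lists of other cell types hold markers also found in mast cells (basophil: 47.0 and 43.1 UMIs per 10000 in chimera and SD rat members; B cell: 0.693 and 0.494; pericyte and smooth muscle: 0.762 and 1.17; erythroid: 0.832 and 1.53). Of the MHC and interferon list 3 genes were compared and 0 passed 2-fold; of the cell cycle list 2 and 0. The ratio step was tested on simulated data of 1240 genes for the chimera rat against SD rat comparison: 95.4% of intervals held the true ratio, 3.07% of 1042 unchanged genes passed 2-fold, and 100% of 105 genes changed 4-fold did. The simulated members of a group shared 1 profile and differed by counting error only. These shares therefore do not cover the spread among real members, in which 1 cell can hold much of a gene's UMIs.

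Doublets stayed in the main values. Scrublet (scanpy 1.11.5, expected rate 8%) marked 164 of 8980 SD rat barcodes (1.83%), 1 of them a mast cell, and 1 of 12173 chimera barcodes, so it did not work there. Python 3.11.15 and scipy 1.17.1 were used.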

Additional observations from a re-analysis of the deposited data

How the results depend on the processing

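Genes with few UMIs in 32 and 46 cells have wide intervals, and 1 library a group gives no spread between animals. No paired analysis was possible because each group has 1 sample and no test was run; for the same reason no replicate could be left out. With at least 2 rule markers the SD rat share was 0.846%, and 51 genes were past 2-fold higher and 289 lower. Timp1 then differed by -0.84 and Ccl7 by -0.69, both reversed. The 30 SD rat and 5 chimera rat barcodes that this setting added held a median of 2 marker UMIs in either group. With all negative genes allowed the shares were 0.935% in the SD rat and 0.672% in the chimera rat cells, with 86 higher and 153 lower, and Timp1 reversed to -1.45. With Cd79a alone allowed, chosen after the data were seen, the shares were 0.757% and 0.543% and Timp1 was -0.98. Species thresholds of 10% and 90% gave a chimera rat share of 1.05%, as 31 of 2964 barcodes; at most 10% mitochondrial UMIs gave 0.247%. With no filter on low counts 2112 genes were higher and 1381 lower of 10279. With at least 100 UMIs there were 13 and 29 of 495. Without genes that had 5% or more of their UMIs on the mouse row there were 19 and 45 of 880. With rat rows alone Rplp2 reversed to -0.51. The cause was not tested beyond the change in barcodes, genes or rows that each setting makes. Leaving out members with RNA of other cells, or the highest member of each gene, were also chosen after the data were seen and are given with the results. The doublet setting says nothing for the chimera, where 1 barcode was marked.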
